A study of Mus musculus with 32 samples.

Results

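The integrin, laminin and nidogen genes of the mouse were followed in 22 gliomas and 10 normal brain samples. Members were taken by symbol: integrin alpha and beta chains, laminin alpha, beta and gamma chains, and both nidogens. The symbol column gave 30 genes and the gene identifiers gave 4 more, of which Itgal, Lama2 and Lama3 stood in entries that join several symbols and Lamb1 under an older name, so that 34 of 17297 genes were described, read by 37 probe sets. They fell into 7 leukocyte integrins, 15 matrix-binding integrins, 10 laminins and 2 nidogens. Itga1, Itga11, Itgad and Itgb8 are not analysed here. A filter that left out the lowest 25% of genes by mean level would have kept 25 of the 34 members and dropped 9 (Itga2, Itga10, Itgal, Itgam, Itgb3, Itgb6, Lama3, Lamb3 and Lamc3). No such filter was used for the main values.

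RNA from brain tissue and tumours was hybridised to Affymetrix arrays in 2 sets, Z1 and Z2, whose meaning the labels do not give. Set Z1 held 9 gliomas of genotype hGFAP-cre;p53KO/+;Nf1+/flox, called cis p53/Nf1 gliomas here, and 3 normal forebrains. Set Z2 held 4 gliomas of genotype hGFAP-cre;p53flox/flox;Nf1KO/+ (p53 Nf1KO gliomas), 9 of genotype hGFAP-cre;p53flox/flox (p53 gliomas), 3 normal cerebella and 4 normal forebrains. All 3 models carried hGFAP-cre, in which the human GFAP promoter drives Cre in glial and neural progenitor lineages, so floxed alleles were not deleted in every cell of the animal, while the KO alleles were present throughout. Normal samples were labelled only as normal, the protocol calls the control tissue wild type, and ages, pooling and litters are not given in the sources used here. Where separate animals are not stated, p-values measure the spread between these samples.

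Integrins are pairs of an alpha and a beta chain that span the cell membrane and tie it to the extracellular matrix or to other cells. The leukocyte integrins share the beta chain encoded by Itgb2, or pair the chains of Itga4, Itgae and Itgb7, and bind ligands on other cells. Matrix-binding integrins recognise fibronectin, vitronectin, tenascin, collagen or laminin. Laminins are trimers of an alpha, a beta and a gamma chain that form the basement membrane sheet, and nidogens link that sheet to collagen IV. In the brain, basement membranes lie mainly around blood vessels and under the meninges, and Itgam and Itgb2 are known as microglial and macrophage genes.

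To show the start regions of genes whose levels the results turn on, 5 promoter windows were taken from RefSeq (build GRCm38.p6), each running from 250 bases before to 50 bases after the start. Of the 34 members, 21 had windows in this table, 24 in all. Itgax lies on chr7:128129300-128129599, plus strand, Itgam on chr7:128062390-128062689, plus strand, Itgb1 on chr8:128685404-128685703, plus strand, Itgav on chr2:83724147-83724446, plus strand, and Lama2 on chr10:27616893-27617192, minus strand. Itgax and Itgam stand for the leukocyte chains, Itgb1 and Itgav for matrix-binding chains that were higher in tumours, and Lama2 for a laminin chain that was lower. Capitals mark 3 motifs searched on both strands: the core of the PU.1 site (GAGGAA), the AP-1 site (TGANTCA) and the GC box (GGGCGG), whose spellings do not overlap one another.
Itgax: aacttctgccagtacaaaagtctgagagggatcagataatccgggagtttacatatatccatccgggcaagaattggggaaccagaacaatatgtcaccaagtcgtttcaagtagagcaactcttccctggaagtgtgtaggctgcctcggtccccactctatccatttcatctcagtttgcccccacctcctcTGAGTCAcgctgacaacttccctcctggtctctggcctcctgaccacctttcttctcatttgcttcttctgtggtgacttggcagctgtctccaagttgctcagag
Itgam: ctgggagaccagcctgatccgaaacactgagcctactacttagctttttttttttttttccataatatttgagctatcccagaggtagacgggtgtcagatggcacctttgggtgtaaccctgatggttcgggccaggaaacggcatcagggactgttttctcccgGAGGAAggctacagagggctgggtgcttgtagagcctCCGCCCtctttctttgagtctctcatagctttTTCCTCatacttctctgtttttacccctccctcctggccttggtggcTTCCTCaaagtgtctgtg
Itgb1: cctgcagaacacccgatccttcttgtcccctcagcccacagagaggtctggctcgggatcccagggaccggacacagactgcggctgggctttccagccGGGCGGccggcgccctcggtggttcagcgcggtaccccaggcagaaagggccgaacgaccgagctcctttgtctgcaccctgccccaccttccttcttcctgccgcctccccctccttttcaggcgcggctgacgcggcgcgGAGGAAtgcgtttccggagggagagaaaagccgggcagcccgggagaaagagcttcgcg
Itgav: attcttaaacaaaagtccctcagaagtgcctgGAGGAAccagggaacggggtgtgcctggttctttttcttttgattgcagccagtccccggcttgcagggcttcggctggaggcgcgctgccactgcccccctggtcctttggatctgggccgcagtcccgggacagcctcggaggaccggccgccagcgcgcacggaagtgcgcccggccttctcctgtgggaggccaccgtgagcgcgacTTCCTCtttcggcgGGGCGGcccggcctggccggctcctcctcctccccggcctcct
Lama2: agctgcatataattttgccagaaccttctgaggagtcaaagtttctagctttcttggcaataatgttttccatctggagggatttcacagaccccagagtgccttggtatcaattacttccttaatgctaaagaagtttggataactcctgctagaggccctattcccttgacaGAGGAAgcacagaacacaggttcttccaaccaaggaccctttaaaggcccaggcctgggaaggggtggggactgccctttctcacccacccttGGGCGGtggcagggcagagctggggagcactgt

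The Itgax window held 1 AP-1 site starting 56 bases before the start and no GAGGAA. The Itgam window held 3 copies of GAGGAA or its reverse complement and 1 GC box. The Itgb1 window held 1 GAGGAA starting 9 bases before the start and 1 GC box 151 bases before it, and the windows of Itgav and Lama2 also held both spellings. Among all 32851 promoter windows, GAGGAA was found in 28.3%, TGANTCA in 7.81% and GGGCGG in 35.7%, against 14, 3 and 13 of the 24 member windows (58.3%, 12.5% and 54.2%). These are matches of letters and describe the windows only.

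The values are the authors' normalized log2 values. Their scale differed between the sets, with array medians of 8.48 to 8.57 and a lowest value of 3.95 or more in Z1, against medians of 6.90 to 7.06 and a lowest value of 0.985 or more in Z2. Glioma levels were for this reason read only against forebrains of the same set. Along the mean change of all genes between p53 gliomas and Z2 forebrain, p53 glioma 1 lay at 17% and the other 8 p53 gliomas at 80.1% to 139.8%, and values without it are given beside the results whose call it changed. Differences below are glioma minus forebrain on the log2 scale, each with the standard error of limma's fit over all 32 arrays, and a gene was called higher or lower at an adjusted p under 0.05 over all genes tested.

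In cis p53/Nf1 gliomas 11 of the 34 members were higher and 4 lower than in Z1 forebrain, where 21.9% of all genes tested were called higher and 20.3% lower. In p53 gliomas 10 were higher and 3 lower than in Z2 forebrain, with 17.7% and 20.6% of all genes. In p53 Nf1KO gliomas 3 were higher and 1 lower, with 5.23% and 3.04% of all genes. In 8 members every cis p53/Nf1 glioma lay above, and in 4 below, every Z1 forebrain (17.9% and 17.8% of all genes). For p53 gliomas these counts were 3 and 0 (5.20% and 4.59%), and for p53 Nf1KO gliomas 8 and 1 (10.1% and 10.5%). The members' median difference was 0.15, 0.20 and -0.01 in the 3 comparisons, beside -0.00, -0.04 and -0.07 over all genes tested. Of the 34 members, 17 were called in none of the 3 comparisons, and Itgax, Itgb2 and Lama4 were the 3 called higher in each. The p53 and p53 Nf1KO comparisons share the same 4 forebrains.

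**Figure D1:**
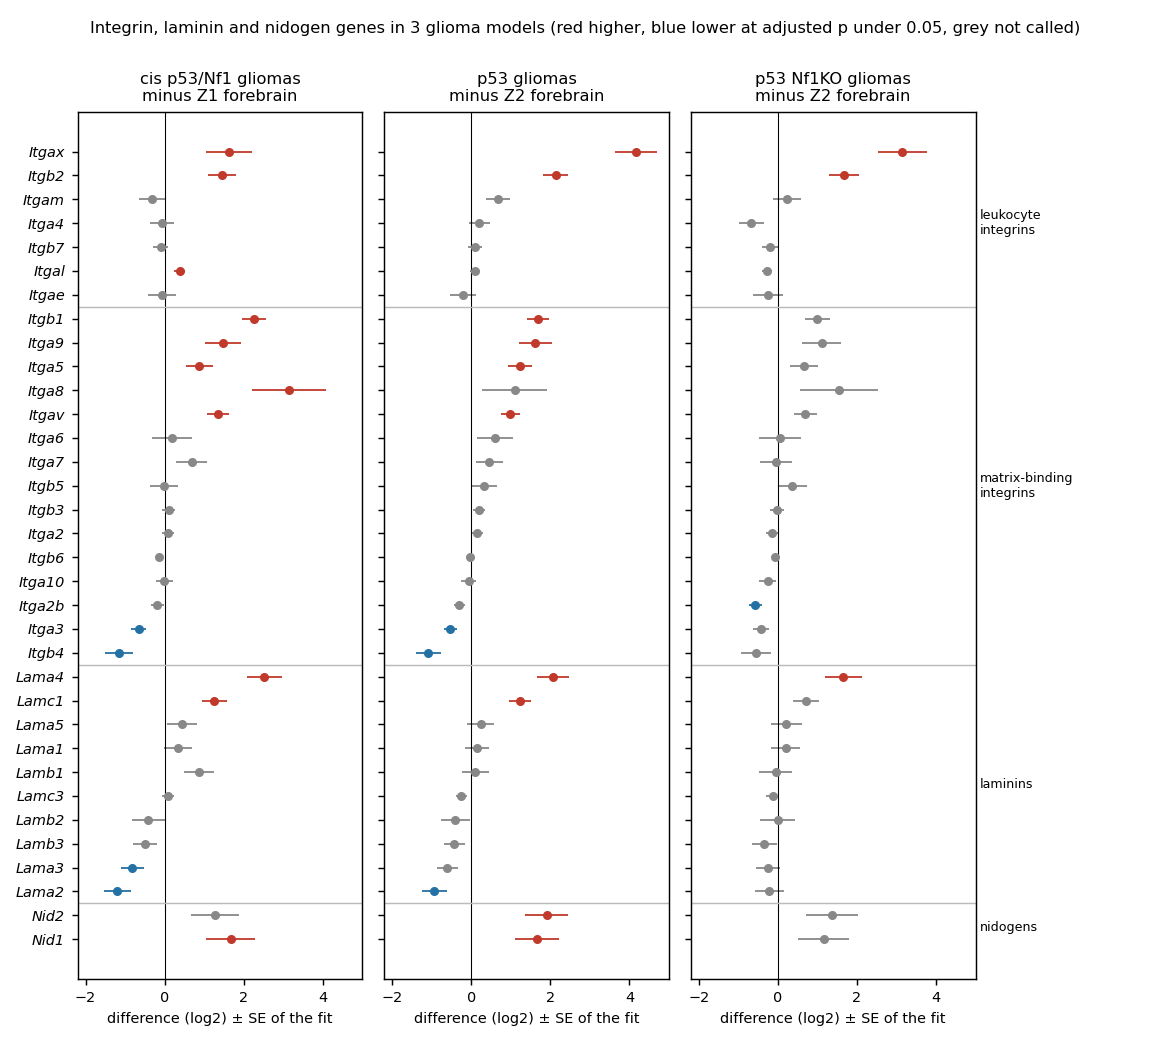
Difference of each of the 34 members between gliomas and own-set forebrain (horizontal axis, log2; points with bars of 1 standard error of limma's fit), by class down the page, in cis p53/Nf1, p53 and p53 Nf1KO gliomas. Red points are called higher, blue points lower and grey points not called; Itgax stands at 1.62, 4.16 and 3.15 and Itgb4 at -1.15, -1.09 and -0.55.

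Of the leukocyte integrins, the chains Itgax and Itgb2 carried the change. Itgax (CD11c, the alpha chain of complement receptor 4 on macrophages and dendritic cells) was the member with the largest difference in both Z2 models. In the 9 p53 gliomas it ranged over 5.46, 8.14 and 9.51 (lowest, median, highest), against 3.28, 3.87, 4.10 and 3.89 in Z2 forebrain. The p53 Nf1KO gliomas measured 8.75, 5.32, 6.20 and 7.47. No glioma of either model overlapped with forebrain, and p53 glioma 1 had the lowest value of its group. In cis p53/Nf1 gliomas Itgax ranged over 7.68, 8.44 and 9.18, against 7.09, 6.74 and 6.91 in Z1 forebrain, again without overlap.

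The difference for Itgax was 4.16 ± 0.52 in p53 gliomas (limma adjusted p = 3.12e-06), a 17.9-fold level. For p53 Nf1KO tumours it was 3.15 ± 0.62 (limma adjusted p = 0.00227), and it was 1.62 ± 0.58 in cis p53/Nf1 gliomas (limma adjusted p = 0.0250). The cis p53/Nf1 call was lost when any one of the 3 Z1 forebrains was left out, with limma adjusted p-values of 0.0566, 0.0878 and 0.0710. Set against each other, the cis p53/Nf1 difference was smaller than the p53 difference by 2.54 ± 0.78, which did not pass (limma adjusted p = 0.0892). Without p53 glioma 1 that gap was -2.85 and passed (limma adjusted p = 0.0175). The different spread of values in the 2 sets bears on this gap, and its part was not tested.

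Itgb2 (CD18, the beta chain shared by the leukocyte integrins) was higher in all 3 models. It ranged over 8.62, 9.73 and 10.18 in cis p53/Nf1 gliomas, against 8.29, 8.23 and 8.14 in Z1 forebrain. The p53 gliomas spread over 6.54, 8.12 and 8.81, and in p53 Nf1KO gliomas it was 8.16, 7.16, 7.21 and 7.70, against 5.73, 6.35, 5.99 and 5.44 in Z2 forebrain. The groups did not overlap in any of the 3 comparisons. The differences were 1.46 ± 0.35 (limma adjusted p = 0.00125), 2.14 ± 0.32 (limma adjusted p = 2.00e-05) and 1.68 ± 0.37 (limma adjusted p = 0.00644) in cis p53/Nf1, p53 and p53 Nf1KO gliomas.

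Itgam (CD11b, the alpha chain that pairs with Itgb2 in complement receptor 3) was called in none. Its mean over all arrays, 5.19, lay in the lowest 25% of genes by mean level. The absence of a call therefore does not show that it was unchanged. In cis p53/Nf1 gliomas it ranged over 5.90, 6.28 and 7.89, against 6.83, 7.07 and 6.90 in Z1 forebrain. Values in p53 gliomas ran over 4.14, 4.61 and 5.87 and in p53 Nf1KO gliomas it was 4.33, 4.38, 3.85 and 4.22, against 3.77, 4.21, 3.78 and 4.06 in Z2 forebrain. Gliomas and forebrains overlapped in each comparison. Its differences were -0.31 ± 0.33, 0.69 ± 0.30 and 0.24 ± 0.35, with limma adjusted p-values of 0.495, 0.0715 and 0.700.

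Of the other leukocyte chains, Itgal (CD11a, the LFA-1 alpha chain of lymphocytes) was higher by 0.38 in cis p53/Nf1 gliomas (limma adjusted p = 0.0203), which was lost without Z1 forebrain 2 or without Z1 forebrain 3. Itga4 (which pairs with the chains of Itgb1 and Itgb7), Itgae (CD103) and Itgb7 stood between -0.67 and 0.20 in the 3 comparisons and were not called. By class the median difference was -0.07, 0.20 and -0.19, so 2 or 3 of 7 chains moved and the rest did not pass. The share called higher was 42.9%, 28.6% and 28.6%, against 21.9%, 17.7% and 5.23% of all genes.

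Markers of white blood cells were measured beside these chains. Of all genes tested 21.9%, 17.7% and 5.23% were called higher in cis p53/Nf1, p53 and p53 Nf1KO gliomas, and 20.3%, 20.6% and 3.04% lower. Of 8 pan-leukocyte genes, 4 were higher and 1 (Coro1a, at -2.02) lower in cis p53/Nf1 gliomas, and in the p53 and p53 Nf1KO gliomas 7 and 2 were higher. Their mean level ranged from 8.49 to 9.67 in cis p53/Nf1 gliomas, against 8.51 to 8.91 in Z1 forebrain. It ranged from 8.57 to 10.24 in p53 gliomas and from 8.78 to 9.68 in p53 Nf1KO gliomas, against 8.11 to 8.48 in Z2 forebrain. Ptprc, the common leukocyte antigen, was higher by 1.68 and 1.94 in cis p53/Nf1 and p53 gliomas. Of 13 microglia and macrophage genes 6, 8 and 4 were higher in cis p53/Nf1, p53 and p53 Nf1KO gliomas. Only 1 of these 13, the homeostatic microglial gene P2ry12, was called lower, by 1.87 in cis p53/Nf1 gliomas, where the highest difference was 3.72. None was lower in p53 or p53 Nf1KO gliomas, and Tmem119 was called in none of the 3 models. In bulk tissue a change in the number of cells of a type and a change in RNA per cell cannot be told apart. Of 9 neutrophil genes none was higher in cis p53/Nf1 or p53 Nf1KO gliomas, while 1 was higher and 3 lower in p53 gliomas. Their mean level in Z2 forebrain was 4.55, 4.80 and 7.16 (lowest, median, highest), against 3.85 to 6.45 in p53 gliomas. How far the lower calls rest on the highest of these forebrains was not tested. Of 9 T and NK cell genes none was higher in any model. The part of these cells in the levels of Itgax and Itgb2 was not tested.

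**Figure D2:**
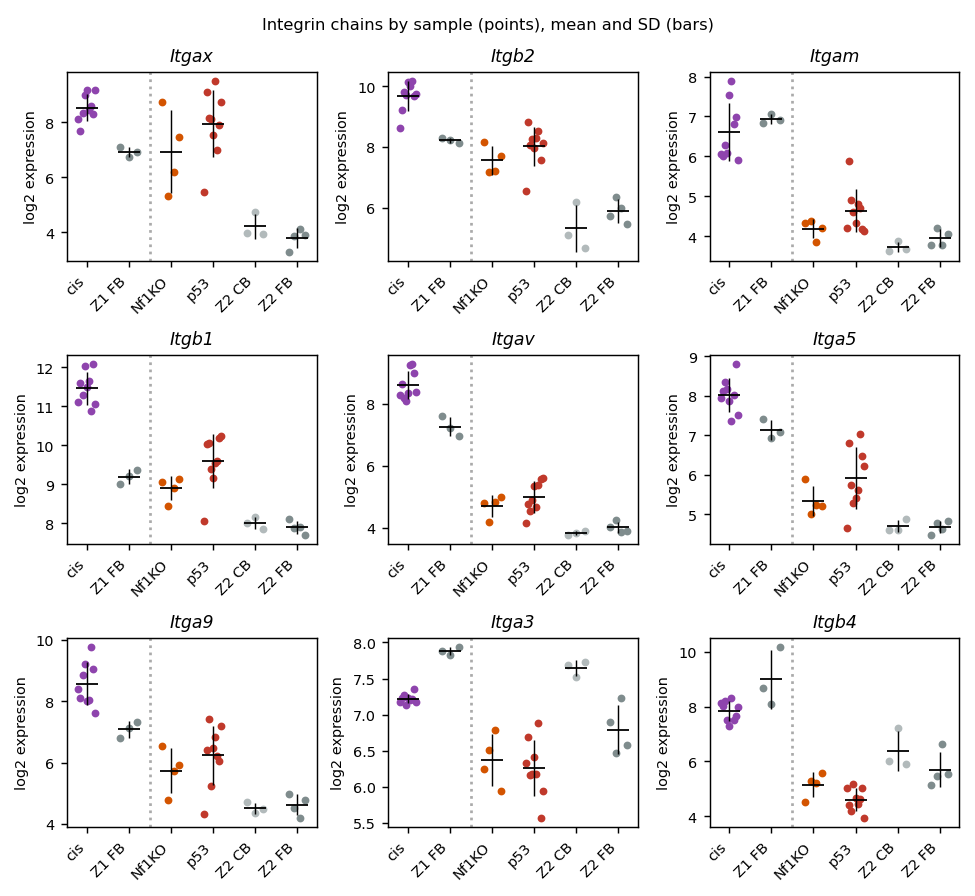
Log2 values of 9 integrin chains in every sample (points) with group mean and SD (bars), left of the dotted line cis p53/Nf1 gliomas and Z1 forebrain (FB), right of it p53 Nf1KO gliomas, p53 gliomas, Z2 cerebellum (CB) and Z2 forebrain (FB). Itgax in the 9 p53 gliomas lies between 5.46 and 9.51, above the 4 Z2 forebrains at 3.28 to 4.10.

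Of the 15 matrix-binding integrins, 5 (33.3%) were higher and 2 (13.3%) lower in cis p53/Nf1 gliomas, against 21.9% and 20.3% of all genes. In p53 gliomas 4 (26.7%) were higher and 2 (13.3%) lower, against 17.7% and 20.6% of all genes. In p53 Nf1KO gliomas none was higher and 1 (6.67%) lower, against 5.23% and 3.04%. Chains that take part in binding of fibronectin, vitronectin and tenascin were among those that rose. Itgb1, the beta chain of most matrix receptors, ranged over 10.88, 11.50 and 12.09 in cis p53/Nf1 gliomas, against 9.01, 9.20 and 9.37 in Z1 forebrain. Across p53 gliomas it covered 8.05, 9.61 and 10.24 and in p53 Nf1KO gliomas it was 9.07, 8.45, 8.91 and 9.15, against 8.12, 7.87, 7.90 and 7.70 in Z2 forebrain. Only p53 glioma 1 overlapped with the forebrains. The differences were 2.27 ± 0.30 (limma adjusted p = 1.21e-06) in cis p53/Nf1 gliomas and 1.69 ± 0.27 (limma adjusted p = 5.48e-05) in p53 gliomas. For p53 Nf1KO gliomas the difference of 1.00 ± 0.32 just missed the threshold (limma adjusted p = 0.0514), although every tumour lay above every forebrain.

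Itgav, the alpha chain of vitronectin receptors, ranged over 8.11, 8.39 and 9.30 in cis p53/Nf1 gliomas, against 7.59, 7.23 and 6.97 in Z1 forebrain. Among p53 gliomas it took 4.15, 4.91 and 5.60 and in p53 Nf1KO gliomas it was 4.79, 4.19, 4.84 and 4.98, against 4.03, 4.25, 3.85 and 3.89 in Z2 forebrain. It did not overlap in Z1, and p53 glioma 1 and p53 Nf1KO glioma 2 reached into the forebrain range in Z2. The differences were 1.35 ± 0.27 (limma adjusted p = 0.000164), 0.99 ± 0.24 (limma adjusted p = 0.00235) and 0.70 ± 0.28 (limma adjusted p = 0.117, not called).

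Itga5, the alpha chain of the main fibronectin receptor, ranged over 7.37, 8.03 and 8.81 in cis p53/Nf1 gliomas, against 7.41, 6.92 and 7.09 in Z1 forebrain. The 9 p53 gliomas gave 4.65, 5.74 and 7.03 and in p53 Nf1KO gliomas it was 5.88, 5.01, 5.24 and 5.21, against 4.48, 4.78, 4.62 and 4.82 in Z2 forebrain. Most tumours lay above their forebrains. The differences of 0.88 (limma adjusted p = 0.0345) and 1.24 (limma adjusted p = 0.00224) were called in cis p53/Nf1 and p53 gliomas, and 0.66 in p53 Nf1KO gliomas was not. The cis p53/Nf1 call was lost when cis p53/Nf1 glioma 3 or 8 or Z1 forebrain 2 or 3 was left out.

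Itga9, which encodes a receptor chain for tenascin and osteopontin, ranged over 7.62, 8.40 and 9.78 in cis p53/Nf1 gliomas, against 6.79, 7.14 and 7.34 in Z1 forebrain. The p53 gliomas spread over 4.34, 6.42 and 7.42 and in p53 Nf1KO gliomas it was 6.54, 4.77, 5.71 and 5.91, against 4.98, 4.52, 4.20 and 4.80 in Z2 forebrain. It was higher by 1.48 in cis p53/Nf1 gliomas (limma adjusted p = 0.0108, lost without Z1 forebrain 1) and by 1.62 in p53 gliomas (limma adjusted p = 0.00350), with 1.11 not called in p53 Nf1KO gliomas.

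Itga8, which pairs with Itgb1 and binds nephronectin, had the largest SD of any member in cis p53/Nf1 and in p53 gliomas. It ranged over 6.45, 10.47 and 12.13 in cis p53/Nf1 gliomas, against 6.80, 7.22 and 6.18 in Z1 forebrain, a difference of 3.14 ± 0.92 (limma adjusted p = 0.00682). Values in p53 gliomas ran over 4.12, 4.82 and 9.01, with a difference from Z2 forebrain of 1.10 ± 0.83 that was not called. In p53 Nf1KO gliomas it was 5.24, 5.63, 5.72 and 7.85, against 4.69, 4.32, 4.46 and 4.79 in Z2 forebrain, without overlap. That difference of 1.54 ± 0.98 was the largest of the matrix-binding chains in this comparison and was not called (limma adjusted p = 0.322).

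Itgb4, whose chain pairs only with Itga6 in a laminin receptor, was lower in tumours. It ranged over 7.29, 8.0 and 8.31 in cis p53/Nf1 gliomas, against 8.69, 8.11 and 10.18 in Z1 forebrain. Across p53 gliomas it covered 3.93, 4.61 and 5.19 and in p53 Nf1KO gliomas it was 4.51, 5.30, 5.20 and 5.59, against 5.15, 5.47, 6.64 and 5.53 in Z2 forebrain. The groups overlapped in each comparison. The differences were -1.15 ± 0.35 (limma adjusted p = 0.00920), -1.09 ± 0.32 (limma adjusted p = 0.00816) and -0.55 ± 0.37, the last not called. The cis p53/Nf1 value rests on Z1 forebrain 3, without which it was -0.55 and not called, and the p53 value was -0.78 and not called without Z2 forebrain 3.

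Itga3, a laminin-binding alpha chain, was lower by 0.66 in cis p53/Nf1 gliomas (limma adjusted p = 0.00477), where the 9 tumours at 7.14 to 7.35 all lay below the 3 forebrains at 7.82 to 7.94. It was lower by 0.53 in p53 gliomas (limma adjusted p = 0.0132), which was lost without Z2 forebrain 3. The laminin-binding chains Itga6 and Itga7 were called in no comparison. Itga2b, the platelet fibrinogen receptor chain, was lower by 0.57 in p53 Nf1KO gliomas (limma adjusted p = 0.0312). That call was lost when Z2 forebrain 2 or 4, or p53 Nf1KO glioma 1 or 4, was left out. Of 6 platelet genes none was called there, but their differences were all negative, from -1.62 to -0.07 (median -0.33). The part of platelets in the level of Itga2b was not tested. The remaining matrix-binding chains (Itga2, Itga10, Itgb3, Itgb5 and Itgb6) stood between -0.26 and 0.36 and were not called.

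Of the 10 laminin chains, 2 (20%) were higher and 2 (20%) lower in cis p53/Nf1 gliomas, against 21.9% and 20.3% of all genes. In p53 gliomas 2 (20%) were higher and 1 (10%) lower, against 17.7% and 20.6% of all genes. In p53 Nf1KO gliomas 1 (10%) was higher and none lower, against 5.23% and 3.04%. Lama4, the alpha chain of vascular laminins, ranged over 8.81, 9.47 and 10.11 in cis p53/Nf1 gliomas, against 6.88, 6.89 and 7.06 in Z1 forebrain. Among p53 gliomas it took 4.97, 6.63 and 7.99 and in p53 Nf1KO gliomas it was 6.23, 6.28, 5.71 and 7.44, against 4.76, 4.92, 4.66 and 4.70 in Z2 forebrain. No tumour overlapped with its forebrains. Its difference was 2.52 ± 0.44 in cis p53/Nf1 gliomas (limma adjusted p = 3.98e-05), a 5.75-fold level, and 2.07 ± 0.40 in p53 gliomas (limma adjusted p = 0.000324). In p53 Nf1KO gliomas it was 1.66 ± 0.47 (limma adjusted p = 0.0285), which was lost when any of the 4 forebrains, or p53 Nf1KO glioma 1 or 4, was left out.

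Lamc1, the gamma chain of most laminins, ranged over 8.79, 9.34 and 10.30 in cis p53/Nf1 gliomas, against 8.02, 8.16 and 8.19 in Z1 forebrain. The 9 p53 gliomas gave 6.68, 8.19 and 9.08 and in p53 Nf1KO gliomas it was 7.66, 7.01, 7.65 and 7.82, against 6.85, 6.65, 6.99 and 6.81 in Z2 forebrain. Only p53 glioma 1 overlapped. The differences were 1.26 (limma adjusted p = 0.00145), 1.23 (limma adjusted p = 0.00129) and 0.71, the last not called. The beta chains Lamb1 and Lamb2, which complete such trimers, were called in none, with Lamb1 at 0.87 in cis p53/Nf1 gliomas (limma adjusted p = 0.0719).

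Lama2, the alpha chain of muscle and brain laminin that is mutated in congenital muscular dystrophy, was lower. It ranged over 6.85, 7.16 and 7.80 in cis p53/Nf1 gliomas, against 8.76, 7.92 and 8.65 in Z1 forebrain, and in p53 gliomas over 5.89, 7.22 and 7.94, against 7.64, 7.57, 8.85 and 8.19 in Z2 forebrain. The p53 Nf1KO gliomas gave 6.92, 7.95, 8.92 and 7.62, of which 2 lay in the forebrain range, 1 below and 1 above it. The differences were -1.19 (limma adjusted p = 0.00610), -0.94 (limma adjusted p = 0.0189) and -0.21, the last not called. The cis p53/Nf1 call was lost without Z1 forebrain 1, and the p53 call without Z2 forebrain 3 or 4. Lama3, which belongs to an epithelial laminin, was lower by 0.82 in cis p53/Nf1 gliomas (limma adjusted p = 0.0221), lost without Z1 forebrain 1 or 2. Its difference of -0.60 in p53 gliomas was not called, but it was -0.72 and called lower without p53 glioma 1 (limma adjusted p = 0.0156). Lama1, Lama5, Lamb3 and Lamc3 were not called.

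Of the 2 nidogens, Nid1 ranged over 6.18, 8.52 and 10.71 in cis p53/Nf1 gliomas, against 6.34, 6.63 and 7.60 in Z1 forebrain. The p53 gliomas spread over 8.22, 9.51 and 11.09 and in p53 Nf1KO gliomas it was 8.76, 8.70, 9.52 and 9.68, against 8.91, 7.61, 8.13 and 7.38 in Z2 forebrain. The groups overlapped. Its differences were 1.68 ± 0.62 (limma adjusted p = 0.0291) and 1.66 ± 0.56 (limma adjusted p = 0.0195) in cis p53/Nf1 and p53 gliomas, and 1.16 in p53 Nf1KO gliomas was not called. A second probe set of Nid1 stood at 0.94 and was not called in cis p53/Nf1 gliomas, and at 1.02 and called in p53 gliomas. Without Z1 forebrain 1 or 2 the cis p53/Nf1 call was lost, and without Z2 forebrain 2 or 4 the p53 call was. Nid2 was higher by 1.91 in p53 gliomas (limma adjusted p = 0.00783) and its 1.27 in cis p53/Nf1 gliomas was not called (limma adjusted p = 0.0982).

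**Figure D3:**
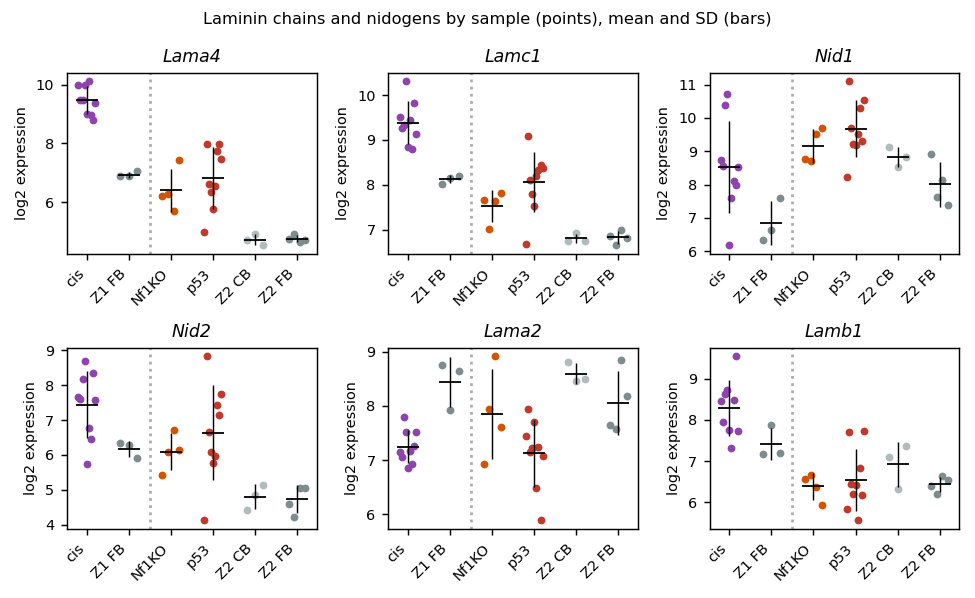
Log2 values of laminin chains and nidogens in every sample (points) with group mean and SD (bars), cis p53/Nf1 gliomas and Z1 forebrain (FB) left of the dotted line, and p53 Nf1KO gliomas, p53 gliomas, Z2 cerebellum (CB) and Z2 forebrain (FB) right of it. Lama4 in the 9 cis p53/Nf1 gliomas lies between 8.81 and 10.11, above the 3 Z1 forebrains at 6.88 to 7.06.

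Vessel markers were measured beside Lama4, Lamc1 and the nidogens. The shares of all genes called higher were 21.9%, 17.7% and 5.23% in cis p53/Nf1, p53 and p53 Nf1KO gliomas, and 20.3%, 20.6% and 3.04% lower. Of 10 endothelial genes 1 was higher and 1 lower in cis p53/Nf1 gliomas, likewise in p53 gliomas, and none was called in p53 Nf1KO gliomas. Their mean level ranged from 7.40 to 8.87 in cis p53/Nf1 gliomas, against 8.02 to 8.30 in Z1 forebrain. It ranged from 6.71 to 7.90 in the p53 gliomas and from 6.67 to 7.14 in the p53 Nf1KO gliomas, against 6.83 to 7.18 in Z2 forebrain. Pecam1 and Cdh5, defining endothelial genes, were called in none. Of 13 pericyte, smooth muscle and fibroblast genes Pdgfra was the only one higher, by 2.90, 2.29 and 1.89, while 2 were lower in cis p53/Nf1 gliomas (Rgs5 and Dcn, at -1.08 and -1.78), 2 in p53 gliomas (Myh11 and Dcn, at -1.16 and -1.72) and none in p53 Nf1KO gliomas. Pdgfra is also an oligodendrocyte progenitor gene, a class in which 6, 6 and 5 of 7 genes were higher. Neuronal markers were called lower at 10 of 10 for the cis p53/Nf1 model and 8 of 10 for the p53 model. None was called for p53 Nf1KO tumours, where 3.04% of all genes were called lower. Their differences there were still all negative, from -1.31 to -0.17 (median -0.79). Of 7 oligodendrocyte genes 4, 2 and 0 were lower in cis p53/Nf1, p53 and p53 Nf1KO gliomas, of 8 meningeal and choroid plexus genes 3, 4 and 0, and of 7 astrocyte genes 4, 1 and 0. All 8 mitosis genes were higher in each of the 3 models. The part of these cells, and of dividing cells, in the levels of the members was not tested.

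The cis p53/Nf1 and p53 comparisons share no sample, but both use the same estimate of each gene's spread from the fit over all 32 arrays. Among the members called higher, 9 were the same in both, 81.8% of those in cis p53/Nf1 gliomas and 90.0% of those in p53 gliomas. Among those called lower 3 were the same, 75% and 100%. Over all genes tested the shared calls made up 60% and 74.3% of the genes called higher, and 69.2% and 68.1% of those called lower. With Lama3 called lower without p53 glioma 1, all 4 members lower in cis p53/Nf1 gliomas were also lower in p53 gliomas. Without Z2 forebrain 3, no member was called lower in p53 gliomas, and no lower call was then shared. No member passed the test of the difference between these changes, where 1.75% of all genes were called by limma and 2 of the 34 members, Itgax and Itgam, had an unadjusted p under 0.05. Nor was a member called between p53 Nf1KO and p53 gliomas, where 0.145% of all genes were called by limma and 5 members (Itga2, Itga4, Itgal, Itgb1 and Lama2) had an unadjusted p under 0.05. Without p53 glioma 1, Itgb1 was lower in p53 Nf1KO than in p53 gliomas by 0.88 (limma adjusted p = 0.0247) and Itgal by 0.42 (limma adjusted p = 0.0421). Itgal levels were low in both models, at 3.18 to 3.85 in the p53 gliomas and 3.01 to 3.51 in p53 Nf1KO gliomas, beside 3.22 to 3.64 in Z2 forebrain. In cerebellum against forebrain of set Z2, 1 of the 34 members was higher (Itga3, by 0.85, limma adjusted p = 0.0143) and 1 lower (Itga4, by 1.13, limma adjusted p = 0.0478), with 2.76% and 2.39% of all genes, and 3 members lay above and 4 below forebrain without overlap (12.6% and 9.83%).

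Partner genes of adhesion were taken from lists. Of 24 focal adhesion and integrin activation genes, 12 (50%) were higher and 2 (8.33%) lower in cis p53/Nf1 gliomas, against 21.9% and 20.3% of all genes. In p53 gliomas 9 (37.5%) were higher and 1 (4.17%) lower, against 17.7% and 20.6% of all genes. In p53 Nf1KO gliomas 2 (8.33%) were higher, against 5.23%. Lims2, an adaptor of the integrin-linked kinase complex, was higher by 1.95 and 2.06 in cis p53/Nf1 and p53 gliomas. Flna, an actin cross-linker that binds integrin tails, was higher by 2.15 and 2.02 in the same models, and Ptk2b, a kinase of the focal adhesion family, was lower by 3.09 and 1.58. Ptk2b was also lower in cerebellum than in forebrain, by 3.65. Talin (Tln1) and paxillin (Pxn) were higher by 1.04 and 1.14 in p53 Nf1KO gliomas.

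Of 14 matrix ligands of integrins, 6 (42.9%) were higher and 1 (7.14%) lower in cis p53/Nf1 gliomas, against 21.9% and 20.3% of all genes. In the p53 and p53 Nf1KO gliomas 9 (64.3%) and 3 (21.4%) were higher, against 17.7% and 5.23% of all genes. Tnc (tenascin-C, a ligand of the Itga9 chain) was higher by 3.50 in cis p53/Nf1 gliomas (limma adjusted p = 0.00193) and by 4.07 in p53 gliomas (limma adjusted p = 0.000372). Fbn1 (fibrillin) was higher by 2.20 and Vtn (vitronectin) lower by 1.67 in cis p53/Nf1 gliomas. Among p53 tumours Ccn1 was higher by 2.76 and Spp1 (osteopontin) by 2.17. In p53 Nf1KO tumours Ccn1 was higher by 2.54 and Fbn1 by 1.43.

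Of 15 basement membrane partners of laminin, 4 (26.7%) were higher and 1 (6.67%) lower in cis p53/Nf1 gliomas, against 21.9% and 20.3% of all genes. In p53 gliomas 9 (60%) were higher and 1 (6.67%) lower, against 17.7% and 20.6% of all genes. In p53 Nf1KO gliomas 1 (6.67%) was higher and 1 (6.67%) lower, against 5.23% and 3.04%. Col18a1 was higher by 2.43 and 3.43 in cis p53/Nf1 and p53 gliomas. Col4a1, a chain of collagen IV, was higher by 1.89, 2.45 and 1.81 in cis p53/Nf1, p53 and p53 Nf1KO gliomas. Bcam, a laminin receptor, was lower by 0.53, 0.42 and 0.48. Of 11 ligands of leukocyte integrins 4 (36.4%) were higher and 3 (27.3%) lower, 5 (45.5%) higher and 2 (18.2%) lower, and 1 (9.09%) higher. Icam1, the ligand of LFA-1 and of complement receptor 3, was higher by 2.32, 2.05 and 1.58, while the neuronal Icam5 was lower by 4.54 in cis p53/Nf1 and 2.01 in p53 gliomas. Thy1, also a neuronal surface protein, was lower by 4.82 in cis p53/Nf1 gliomas.

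**Figure D4:**
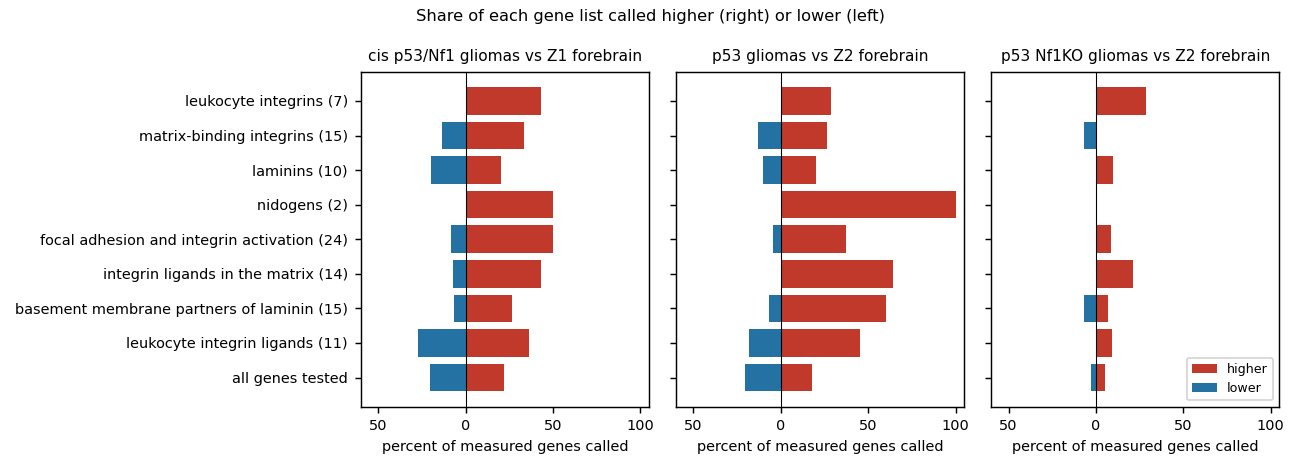
Percent of the measured genes of each list called higher (red, right) or lower (blue, left) in cis p53/Nf1, p53 and p53 Nf1KO gliomas against own-set forebrain, with the number of measured genes in parentheses and all genes tested at the bottom. Matrix ligands stand at 64.3% higher in p53 gliomas, where all genes stand at 17.7%.

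Across the 9 tumours of a model, 19 pairs of partner genes gave 38 correlations, 3 of which passed an exact permutation test over all pairings after Benjamini-Hochberg adjustment, all in p53 gliomas. The share of other gene pairs that would pass was not measured, so the count is not a result about partner genes. In each gene of the 3 pairs, p53 glioma 1 had the lowest value of its group. Lama4 and Lamc1 had a Pearson r of 0.93 (exact permutation p adjusted over 38 = 0.00115) and a Spearman rho of 0.95, and r stayed at 0.91 without p53 gliomas 1 and 8. Itgb2 and Ptprc had r = 0.96 (exact permutation p adjusted = 0.00168) and rho = 0.85, and r was 0.85 without p53 gliomas 1 and 2. Nid1 and Lamc1 had r = 0.89 (exact permutation p adjusted = 0.0199) and rho = 0.82, but r was 0.62 without p53 gliomas 1 and 2 (exact permutation p = 0.116). Leaving out the 2 tumours farthest from the median of Nid1 narrows its range, so whether the relation rests on them cannot be told. By rank only Lama4 and Lamc1 passed (exact permutation p for rho adjusted over 38 = 0.0134), while both other pairs did not (exact permutation p adjusted = 0.102 each).

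In cis p53/Nf1 gliomas no pair passed. Itgb2 and Ptprc had r = 0.88 (exact permutation p adjusted = 0.0603) and r = 0.11 without cis p53/Nf1 gliomas 1 and 2. Leaving out these tumours, the farthest from the median of Itgb2, narrows its range, so whether the relation rests on them cannot be told. Lama4 and Lamc1 had r = 0.48, and 0.89 without cis p53/Nf1 gliomas 6 and 8. Of the chains that form the main fibronectin receptor, Itga5 and Itgb1 had r = 0.44 in these tumours, against 0.74 for p53 gliomas, and did not pass after adjustment. Unadjusted, 10 of the 38 r values had an exact permutation p under 0.05, and the share among other gene pairs was not measured.

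**Figure D5:**
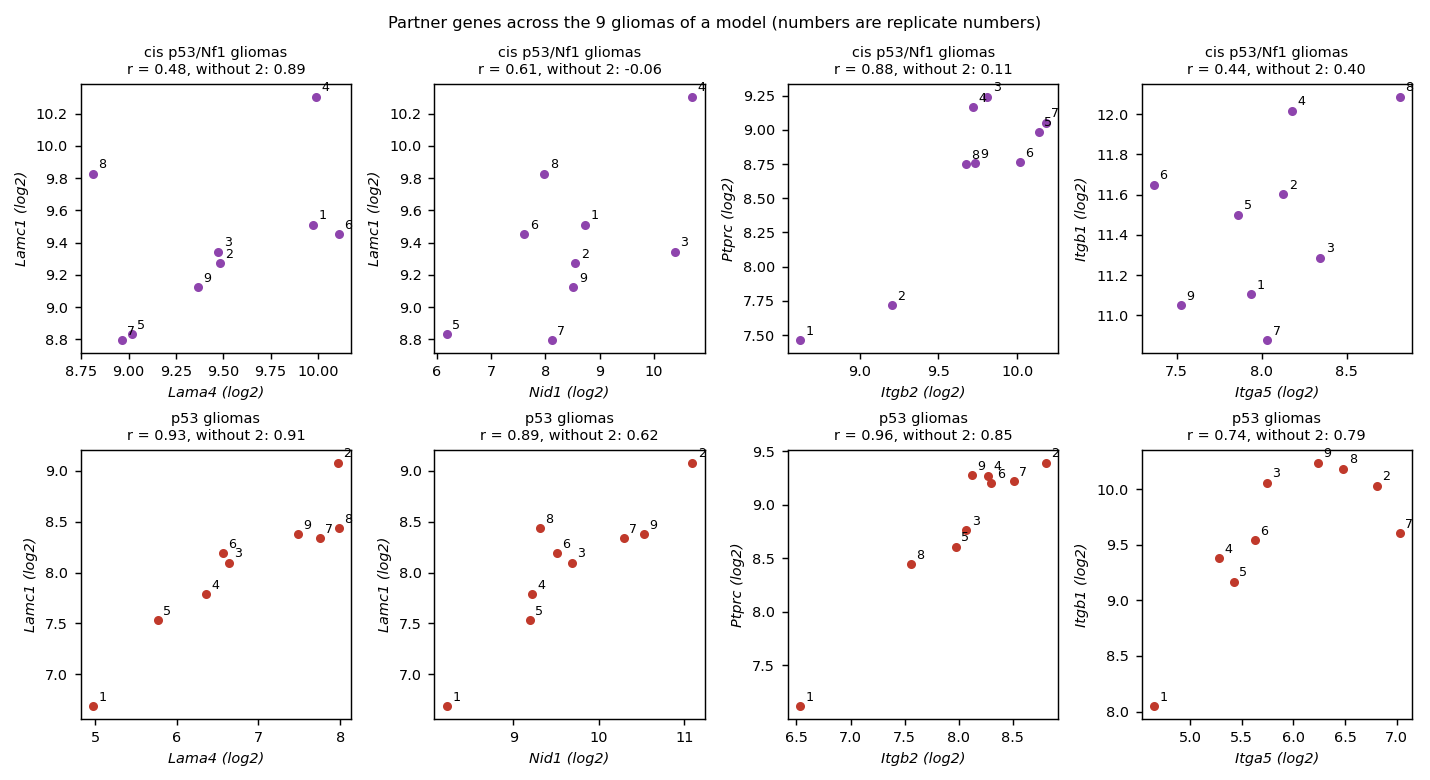
Log2 levels of 4 pairs of partner genes in the 9 cis p53/Nf1 gliomas (upper row) and the 9 p53 gliomas (lower row), each point a tumour with its replicate number, with Pearson r over all tumours and without the 2 farthest from the median of the horizontal axis. Lama4 and Lamc1 rise together in p53 gliomas with r = 0.93, and p53 glioma 1 is lowest for all 4 pairs.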

How the data were processed

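Total RNA of 32 samples was hybridised to Affymetrix mouse genome arrays. The deposited values are log2 expression per probe set, normalized by the authors with a method not given in the sources used here, and the 2 deposited tables hold the same values (largest difference 0). The table holds 18328 probe sets; gene identifiers were matched to RefSeq and the probe set with the highest mean was kept per gene, giving 17297 genes. Array data carry no read depth, so the number of arrays limits the precision. Groups were compared by limma (version 3.58.1, R 4.3.3) in 1 moderated fit of 6 group means, with Benjamini-Hochberg adjustment over all genes and a threshold of 0.05. The procedure was tested on simulated data. Correlations and their exact permutation p-values were computed with numpy 2.4.6, and ranks and the adjustment with scipy 1.17.1. Values in every sample are given for members called in the same direction in at least 2 of the 3 glioma comparisons with a difference of at least 1 in one of them, and for Itgb2, Itgam, Itgav and Itgb1. A laminin gene of the table is not reported here. Members and lists were chosen with earlier results of these data known. Genes of the partner lists were named from the 3 called genes with the largest difference per list and comparison. Itga3, Itga8, and Bcam in 2 of the models were added after their values were seen. Alternatives tried were median centring, quantile normalization, averaging probe sets, a filter on low values, trend and robust eBayes, a replicate block, the compared groups alone, a stricter threshold of 0.01, and leaving out each sample.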

Additional observations from a re-analysis of the deposited data

Results flagged for a closer look

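In 136 groups of 4 to 9 samples examined, 7 held a sample far from the others, and chance alone flags about 1 in 20 groups. Itgb1 in p53 glioma 1 measured 8.05, below the next tumour at 9.17. Itgam in p53 glioma 2 measured 5.87, above the next at 4.91. Lama5 in p53 glioma 9 measured 6.43, above the next at 5.38, and Itgb3 in p53 glioma 8 measured 4.18, above 3.71. In cis p53/Nf1 gliomas Itgb3 measured 7.29 in tumour 4, above 6.50. In p53 Nf1KO gliomas Itgae measured 6.24 in tumour 3, above 4.72, and Itga6 measured 6.87 in tumour 4, below 7.69.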

How the results depend on the processing

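No called difference changed sign under any alternative run; among the 204 member differences, 56 that were not called changed sign at least once. In cis p53/Nf1 gliomas the 11 higher members became 7 with a replicate block and 6 at a threshold of 0.01, and leaving out 1 sample gave 7 to 12 higher and 2 to 4 lower. In p53 gliomas 5 were higher and 0 lower with the replicate block, 5 were lower after median centring or quantile normalization, 1 was lower in the fit to the compared groups alone and 1 at 0.01, and leaving out 1 sample gave 9 to 10 higher and 0 to 4 lower (0 without Z2 forebrain 3). In p53 Nf1KO gliomas 5 were higher in the compared groups alone, 0 were lower with the replicate block, in the compared groups alone and at 0.01, and leaving out 1 sample gave 2 to 4 higher and 0 to 1 lower. Between p53 Nf1KO and p53 gliomas leaving out 1 sample gave 0 to 2 lower (2 without p53 glioma 1). For the difference of differences, the replicate block gave 1 higher and 1 lower, and leaving out 1 sample 0 to 1 lower. For cerebellum, 2 were higher after quantile normalization, 0 in the compared groups alone and 0 at 0.01, with 0 to 4 on leaving out 1 sample, and 0 were lower with trend and robust eBayes, with the replicate block and at 0.01, 2 in the compared groups alone, and 0 to 1 on leaving out 1 sample. The causes were not tested. Same-numbered samples correlated between -0.332 and 0.375 over 24 pairs. In 7 of the 24 this was above every correlation with another number, so the check does not settle whether the numbers pair samples. The share of higher calls among all genes called was 63.2% in p53 Nf1KO gliomas, and 52.9% after centring. For the difference of differences it was 38.1%, and 52.6% after quantile normalization. Between p53 Nf1KO and p53 gliomas it was 52%, and 38.9% after quantile normalization.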
